A study of Mus musculus with 9 samples.

Results

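The amino acid transporter genes of mouse liver were followed through regeneration after partial hepatectomy. They were taken as every protein-coding row of the deposited gene table whose symbol begins with Slc1a, Slc3a, Slc6a, Slc7a, Slc36a, Slc38a or Slc43a and a number, which gave 62 of 43346 genes. Of these, 61 encode membrane carriers or their partner subunits. The remaining gene, Slc7a6os, was caught by its name only, because it lies beside Slc7a6 and does not encode a carrier. After edgeR's filter on low counts, 32 of the 62 could be tested and 30 could not.

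RNA-Seq of whole liver was available for 9 libraries from C57/BL6 mice (C57BL/6J in the study's methods) aged 12 weeks, in 3 groups of 3. Baseline livers were the tissue resected at 0 h from vehicle-treated mice. The 40 h groups were liver remnants taken 40 h after 70% hepatectomy, from mice given vehicle or the SHP1/SHP2 phosphatase inhibitor NSC-87877 (NSC) at 7.5 mg/kg per dose every 12 h, injected i.p. Vehicle was normal saline, and the records place the first dose before surgery. All mice were wild type and, by the study's methods, male. Besides time, surgery and drug, the 40 h groups differ from baseline in liver lobe, because the baseline tissue was the excised median and left lateral lobes and the later samples were the remnant. Lobe and time after surgery cannot be told apart. Resected tissue from NSC-treated mice was not analysed here, and both 40 h groups were therefore set against the same 3 baseline libraries. The comparison of each 40 h group with baseline asks which carriers changed during regeneration, and the comparison of NSC with vehicle at 40 h asks whether the inhibitor altered them.

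Amino acid carriers are grouped in solute carrier (SLC) families by sequence. Some use the sodium gradient to concentrate amino acids in the cell, others exchange one amino acid for another, and the Slc7 light chains reach the membrane only when joined to a heavy chain of the Slc3 family. In the liver they bring in glutamine, alanine and arginine for urea and glucose production, and in dividing cells they feed protein and nucleotide synthesis. Amino acid shortage is sensed in part by the kinase GCN2, which raises the transcription factor ATF4, and ATF4 binds a C/EBP-ATF composite element in the promoters of several carriers and of serine and asparagine synthesis genes.

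Library totals were 23997363 to 42887589 counts, so that 3 counts in a library equal 0.0751 to 0.117 CPM, the unit used here for TMM-normalised counts. All 8 hepatocyte markers were well expressed, with 9-library means from 155 FPKM (Hnf4a) to 43810 FPKM (Alb). Alb, Apoa1, Apob, Hnf4a and Ttr were not called, while Cyp2e1, Serpina1c and Tat fell in both 40 h groups. All 6 proliferation markers rose in both 40 h groups. The first principal component (58.1% of variance) separated baseline from 40 h. On the second (13.2%), NSC replicate 1 lay at -31.0 beside the vehicle libraries, which lay between -28.1 and -13.4, while NSC replicates 2 and 3 lay at 32.5 and 54.0. The NSC results are therefore also given without NSC replicate 1, in a paragraph of their own. Because these are bulk samples, fewer cells of a type and less RNA per cell cannot be told apart. The study describes the 3 libraries of a group as biological replicates.

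Promoter sequences from RefSeq on GRCm38.p6 were found for 44 members, among them 23 of the 32 tested genes. Windows of 300 bases around the transcription start were searched on both strands for TGATGNAA, the C/EBP-ATF composite element. It was present in 3.97% of 32817 promoters and in the promoters of 2 of the 23 tested members, Slc1a4 and Slc7a7. Both were among the 6 genes with a promoter that rose. The others of these 6, Slc7a6, Slc36a4, Slc38a10 and Slc3a1, held no match. A match was found in 0 of 4 genes that fell and 0 of 13 not called. Of all 26994 genes with a promoter, 4.51% held a match, and of 23 amino acid response genes with a promoter 8 did, including Asns and Trib3. The matching windows are shown because these carriers gave the largest and the third largest rise in vehicle-treated livers among the genes called. Slc7a6, which gave the rise between them, is not shown. A window of Slc38a4, which fell, is shown beside them and holds no match. Capitals mark the match, and each sequence runs 5′ to 3′ along the gene's strand, which is the minus strand in all 3.
Slc1a4, chr11:20332694-20332813, 100 bases before to 20 after the start: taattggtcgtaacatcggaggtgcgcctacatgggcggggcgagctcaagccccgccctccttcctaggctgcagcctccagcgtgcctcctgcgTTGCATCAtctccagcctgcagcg
Slc7a7, chr14:54417925-54418104, 160 bases before to 20 after an upstream start: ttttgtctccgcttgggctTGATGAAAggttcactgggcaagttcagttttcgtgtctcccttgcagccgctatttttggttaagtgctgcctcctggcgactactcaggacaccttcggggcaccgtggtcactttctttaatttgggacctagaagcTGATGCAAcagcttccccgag
Slc38a4, chr15:97055937-97056056, 100 bases before to 20 after the start: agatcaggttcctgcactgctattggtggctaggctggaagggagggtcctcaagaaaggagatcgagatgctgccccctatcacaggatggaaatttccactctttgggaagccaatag
The Slc7a7 start with the matches lies 8472 bases upstream of the gene's end in the deposited table, and no match was found in the window at the table's own start. A further 3 motifs were searched in the same windows. TGACNNNGC, the core of the antioxidant response element, was in 12.4% of all promoters and in those of 7 of the 23 tested genes. The E-box CACGTG was in 7.15% and in 3 of 23, and the TEAD site GGAATG in 14.7% and in 7 of 23. These percentages count promoters, whereas a gene was counted if any of its promoters matched. The 23 genes had 41 promoters, so the percentages and the gene counts are not like for like. A match describes letters in a window and not binding.

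Levels differed widely between the carriers. On FPKM, which divides counts by gene length, the 9-library means of the 32 tested genes ran from 0.153 for Slc38a1 to 220 for Slc38a3. The 5 highest were Slc38a3 (220 FPKM), Slc38a4 (192 FPKM), Slc6a13 (86.7 FPKM), Slc3a1 (59.3 FPKM) and Slc7a2 (51.5 FPKM). Slc38a3 and Slc38a4 overlapped at baseline (199 to 473.5 and 275 to 311 FPKM) and with NSC (120.1 to 155 and 139 to 164 FPKM), while with vehicle all 3 values of Slc38a3 (185 to 280.1 FPKM) lay above those of Slc38a4 (126 to 141 FPKM). Summed over all 62 genes, the carriers held 922, 1178 and 889 FPKM in the baseline livers, 726, 772 and 634 FPKM in the vehicle livers and 620, 619 and 588 FPKM in the NSC livers. Every 40 h library lay below every baseline library, and every NSC library below every vehicle library. Slc38a3 and Slc38a4 alone made up 53.6% to 66.6% of that sum at baseline, 44.6% to 54.5% with vehicle and 43.9% to 48.3% with NSC.

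**Figure D1:**
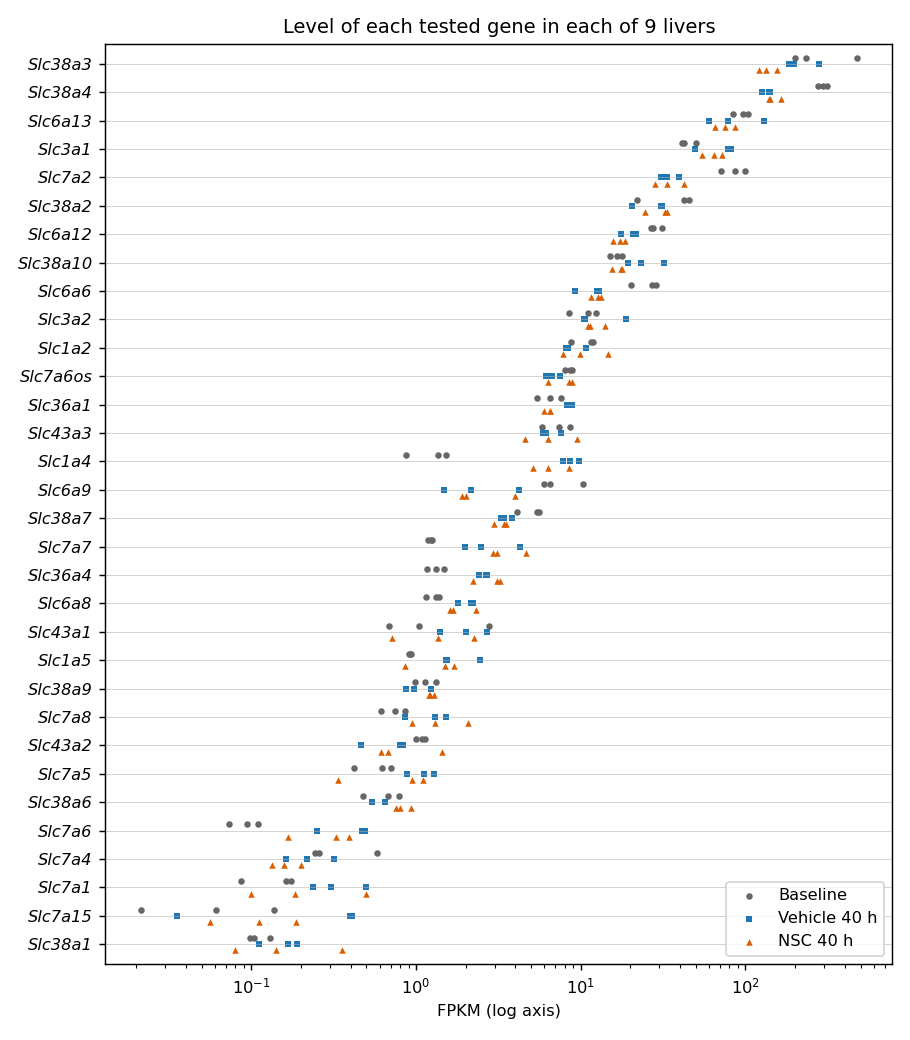
FPKM (log axis) of the 32 tested genes in each library, with grey circles for baseline, blue squares for vehicle at 40 h and orange triangles for NSC at 40 h. The order runs from Slc38a3 (mean 220 FPKM) to Slc38a1 (0.153 FPKM), and Slc1a4 shows the widest gap between baseline and 40 h.

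Of the 30 genes that could not be tested, 8 had no count in any library, namely Slc7a12, Slc7a14, Slc7a10, Slc6a5, Slc38a8, Slc6a15, Slc36a3 and Slc6a18. The other 22 had at most 28 counts in a library. That highest count belonged to Slc7a11, the cystine exchanger induced by oxidative stress, with 28, 8 and 0 counts in the vehicle livers, 0, 0 and 1 at baseline and 4, 0 and 1 with NSC. Most neuronal and epithelial members, such as Slc6a19 of the gut and kidney, were thus at or near the limit of detection.

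Compared with baseline, 14 of the 32 tested genes were called in vehicle-treated remnants at an adjusted p below 0.05 (edgeR quasi-likelihood test, Benjamini-Hochberg over 15024 genes), of which 8 rose and 6 fell. Over all genes tested, 23.7% were called. In NSC-treated remnants 12 were called, 4 rising and 8 falling, where 34.7% of all genes were called. The members' share was 43.8% with vehicle and 37.5% with NSC. The excess with vehicle was smallest without baseline replicate 2, where 7 of 33 carriers were called (21.2%, beside 18.9% of all genes). Without baseline replicate 3 the count was 8 of 33 (24.2%, beside 14.8%). Without baseline replicate 1 or vehicle replicate 2 it was 9 of 33 (27.3%, beside 15.2% and 18.6%). With an absolute log2 fold change above 1.5 as well, 3 genes remained in each comparison (2 up, 1 down), against 7.22% and 8.13% of all genes. The median log2 fold change of the 32 genes was 0.088 with vehicle and -0.120 with NSC, beside 0.013 for all genes in both. In 18 genes the vehicle and baseline libraries did not overlap (46.3% of all genes), and in 14 the NSC and baseline libraries did not (47.1%). Altogether 16 genes were called in at least 1 comparison. Of these, 10 were called in both and in the same direction, 4 with vehicle only and 2 with NSC only. Since both comparisons use the same baseline livers, this overlap is a count and not independent support.

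**Figure D2:**
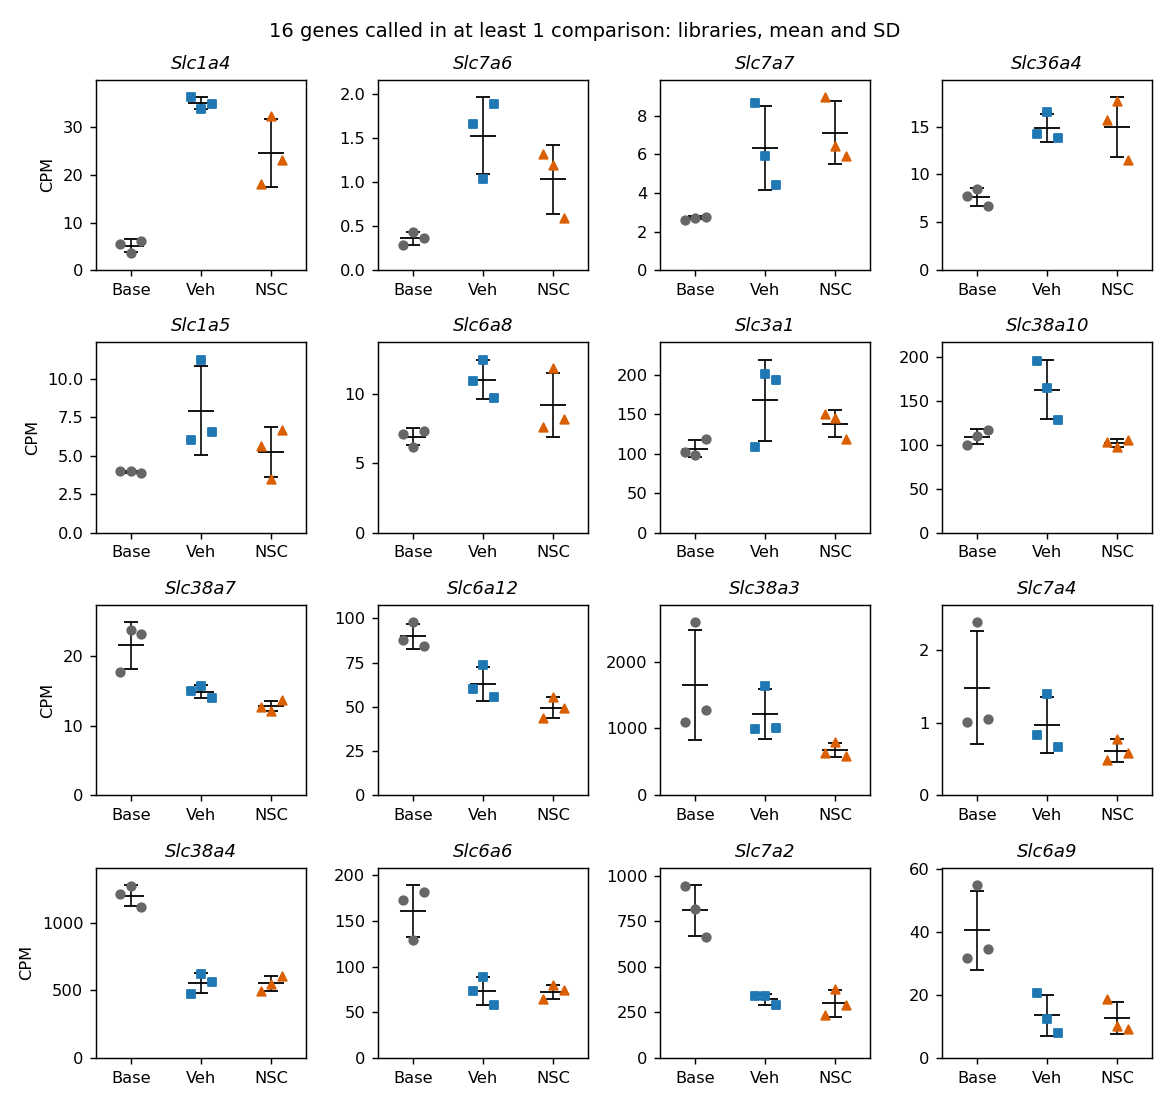
CPM of the 16 genes called in at least 1 comparison with baseline, by library, for baseline (Base), vehicle at 40 h (Veh) and NSC at 40 h (NSC). Horizontal bars give the mean and whiskers the SD of 3 libraries, and panels run from Slc1a4, with the largest rise, to Slc6a9, with the largest fall.

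The carriers of system A and system N take up glutamine, alanine and other small neutral amino acids with sodium, and Slc38a3 and Slc38a4 among them lead all the carriers in level. Slc38a4, a system A carrier of hepatocytes (chromosome 15, 96994823 to 97055956), had 1217, 1274 and 1117 CPM at baseline, 473, 619 and 564 CPM with vehicle and 498, 546 and 609.5 CPM with NSC. Both 40 h groups lay well below baseline and overlapped each other. Slc38a4 fell by 1.12 ± 0.17 (log2, SE, n = 3) with vehicle (adjusted p = 0.000909, edgeR) and by 1.12 ± 0.17 with NSC (adjusted p = 0.00058, edgeR).

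Slc38a3, the system N glutamine carrier (chromosome 9, 107650634 to 107669530), had 1092, 2590 and 1273 CPM at baseline, 989, 1643 and 1007 CPM with vehicle and 635, 799.8 and 595 CPM with NSC. The NSC libraries lay below all others, and replicate 2 was the highest of its group in each group. The NSC difference was -1.29 ± 0.32 (adjusted p = 0.0104, edgeR) and the vehicle difference -0.45 ± 0.32 (adjusted p = 0.343, edgeR), which does not pass. Without baseline replicate 2, the NSC difference was -0.81, still called, and the vehicle difference 0.04. Slc38a2, the system A carrier that amino acid shortage induces in many cells, had 218, 203 and 105 CPM at baseline, 135, 161 and 97.7 CPM with vehicle and 136, 150.0 and 107 CPM with NSC. Its groups overlapped and no call was made (adjusted p = 0.288 with vehicle and 0.254 with NSC, edgeR), although after GC correction Slc38a2 passed with NSC (-0.79, adjusted p = 0.0492). Slc38a2 and Slc38a4 lie 295125 bases apart and Slc38a1 lies 44481 bases from Slc38a2, and of these neighbours on chromosome 15 Slc38a4 was the only one called. Slc38a1, the fourth tested member of the role, was between 0.626 and 2.70 CPM and was not called.

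The cationic amino acid carriers bring arginine, lysine and ornithine into the cell. Slc7a2, the low-affinity CAT-2 carrier of liver (chromosome 8, 40862396 to 40922308), had 945, 818 and 665 CPM at baseline, 342, 337 and 288 CPM with vehicle and 234, 378 and 288 CPM with NSC. The 6 libraries at 40 h lay below the 3 at baseline. Slc7a2 fell by 1.33 ± 0.21 with vehicle (adjusted p = 0.00107, edgeR) and by 1.43 ± 0.21 with NSC (adjusted p = 0.000467, edgeR). Slc7a1, the high-affinity CAT-1 carrier of most other cells, was much lower, with 1.36, 0.672 and 1.25 CPM at baseline, 3.53, 2.57 and 1.85 CPM with vehicle and 3.39, 1.36 and 0.704 CPM with NSC. The vehicle libraries lay above baseline, but the difference of 1.28 ± 0.51 did not pass (adjusted p = 0.0894, edgeR), and the NSC libraries overlapped baseline (0.75 ± 0.51, adjusted p = 0.282, edgeR). The vehicle difference of Slc7a1 did pass with DESeq2 (adjusted p = 0.0494) and, by edgeR, with only the 2 groups compared (0.0174), with the replicate block (0.044) and when NSC replicate 1 (0.0168) or 3 (0.0448) was left out of the fit. In the former of these refits the NSC difference of Slc7a1 was -0.07. In FPKM, Slc7a2 stayed far above Slc7a1 (means over all libraries 51.5 and 0.249).

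Slc7a4, a relative of these carriers whose substrate is not settled, had 1.01, 2.38 and 1.06 CPM at baseline, 0.826, 1.40 and 0.664 CPM with vehicle and 0.480, 0.781 and 0.587 CPM with NSC. Slc7a4 overlaps the protein-coding gene P2rx6, which had at most 5 counts in a library. The NSC difference was -1.27 ± 0.45 (adjusted p = 0.0455, edgeR), at 15 to 23 counts per NSC library. The call did not hold without baseline replicate 2 (adjusted p = 0.234) or 3 (0.0515), NSC replicate 1 (0.1), 2 (0.0618) or 3 (0.0922), or vehicle replicate 1 (0.0589) or 3 (0.0501), all by edgeR, nor under several other settings.

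Slc1a4 and Slc1a5 are exchangers of small neutral amino acids. Slc1a4 (ASCT1), which carries alanine, serine and cysteine (chromosome 11, 20302180 to 20332713), gave the largest rise. Its libraries had 5.56, 3.54 and 6.14 CPM at baseline, 36.4, 33.9 and 35.0 CPM with vehicle and 18.2, 32.4 and 23.2 CPM with NSC. The 3 groups did not overlap, with vehicle highest and NSC between vehicle and baseline. Slc1a4 rose by 2.79 ± 0.24 with vehicle (6.91-fold, adjusted p = 4.12e-05, edgeR) and by 2.28 ± 0.24 with NSC (4.84-fold, adjusted p = 7.85e-05, edgeR). The call held under all 17 alternative settings in both comparisons. Slc1a5 (ASCT2), a glutamine exchanger that many dividing cells use, had 3.98, 4 and 3.89 CPM at baseline, 6.03, 11.3 and 6.53 CPM with vehicle and 5.64, 3.50 and 6.65 CPM with NSC. The vehicle libraries lay above baseline and the NSC libraries overlapped it. Slc1a5 rose by 1.00 ± 0.29 with vehicle (adjusted p = 0.0252, edgeR), and the NSC difference was 0.41 ± 0.29 (adjusted p = 0.295, edgeR). The vehicle call did not hold without vehicle replicate 2 (0.67, adjusted p = 0.118, edgeR) or without baseline replicate 1, 2 or 3 (adjusted p = 0.0736, 0.0568 and 0.0752, edgeR).

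The heavy chains carry the Slc7 light chains to the membrane. Slc3a2 (4F2hc), the partner of Slc7a5, Slc7a6, Slc7a7, Slc7a8 and Slc7a11, had 34.2, 25.99 and 37.9 CPM at baseline, 52.5, 34.3 and 32.6 CPM with vehicle and 37.5, 33.0 and 30.6 CPM with NSC. The groups overlapped and it was not called. Slc3a1 (rBAT), the partner of Slc7a9, had 103, 98.0 and 119 CPM at baseline, 108, 201.5 and 194 CPM with vehicle and 150.5, 145 and 118 CPM with NSC. It rose by 0.66 ± 0.22 with vehicle (adjusted p = 0.0469, edgeR), although vehicle replicate 1 lay within the baseline range, and with NSC the difference was 0.37 ± 0.22 (adjusted p = 0.202, edgeR). The vehicle call of Slc3a1 held in only 8 of 17 alternatives, and without vehicle replicate 2 or 3, baseline replicate 1, 2 or 3 or NSC replicate 2 the adjusted p was 0.157, 0.157, 0.131, 0.118, 0.0733 and 0.0635 (edgeR). Slc7a9 itself had at most 6 counts in a library and Slc7a13, another light chain of Slc3a1, at most 4, beside a mean of 59.3 FPKM for Slc3a1. Slc3a1 overlaps the protein-coding gene Prepl in the table, which had up to 849 counts in a library. How reads from the shared stretch were counted is not given in the sources used here.

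Among the light chains of Slc3a2, which exchange large neutral amino acids or, in system y+L, cationic for neutral ones, 4 were tested and 2 rose in each comparison. Slc7a6 (y+LAT2) had 0.284, 0.428 and 0.363 CPM at baseline, 1.65, 1.04 and 1.88 CPM with vehicle and 1.32, 1.19 and 0.587 CPM with NSC, from 9 to 14 counts at baseline. Every 40 h library lay above every baseline library. Slc7a6 rose by 2.07 ± 0.42 with vehicle (adjusted p = 0.00453, edgeR) and by 1.52 ± 0.43 with NSC (adjusted p = 0.0158, edgeR). The NSC call did not hold without baseline replicate 1 (adjusted p = 0.0586) or 3 (0.05), by edgeR. Its neighbour Slc7a6os, 1734 bases away, was not called in any comparison.

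Slc7a7 (y+LAT1; chromosome 14, 54369444 to 54409472), which carries arginine out of epithelial cells and macrophages, had 2.62, 2.72 and 2.77 CPM at baseline, 8.68, 5.91 and 4.39 CPM with vehicle and 8.97, 6.45 and 5.91 CPM with NSC. Both 40 h groups lay above the narrow baseline range. It rose by 1.23 ± 0.27 with vehicle (adjusted p = 0.00707, edgeR) and by 1.40 ± 0.27 with NSC (adjusted p = 0.0025, edgeR), and the calls held in all 17 alternatives. Slc7a7 shares part of its span with the protein-coding gene Oxa1l, so its counts are uncertain to that extent. Oxa1l had up to 1312 counts in a library, beside at most 347 for Slc7a7. The macrophage and Kupffer cell list (10 genes tested) summed to 115 to 151 FPKM at baseline, 113 to 187 FPKM with vehicle and 202 to 347 FPKM with NSC, with 2 genes rising with vehicle (Cd68 and Marco) and 5 with NSC. The part of these cells in the rise of Slc7a7 was not tested.

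Slc7a5 (LAT1), the large neutral amino acid carrier of growing cells, had 2.72, 1.62 and 2.38 CPM at baseline, 4.51, 4.59 and 3.36 CPM with vehicle and 3.72, 1.22 and 3.29 CPM with NSC. The vehicle libraries lay above baseline, but the difference of 0.89 ± 0.37 did not pass (adjusted p = 0.0987, edgeR). It passed with only the 2 groups compared (adjusted p = 0.023) and without NSC replicate 2 (0.0344), by edgeR. With NSC the difference was 0.30 ± 0.37 (adjusted p = 0.568, edgeR), and NSC replicate 2 was the lowest of the 9 libraries. Slc7a5 overlaps the predicted protein-coding gene Gm20388, which adds the same uncertainty. Gm20388 had up to 1773 counts in a library, beside at most 180 for Slc7a5. The remaining light chain, Slc7a8, was between 2.57 and 7.56 CPM and was not called. Slc43a1 (LAT3), a facilitator of branched-chain amino acids, had 4.11, 16.4 and 6.10 CPM at baseline, 7.58, 17.2 and 11.9 CPM with vehicle and 3.69, 12.6 and 7.28 CPM with NSC. Replicate 2 was the highest library of each group, and the spread within groups exceeded any difference between them. Neither of the other SLC43 genes was called.

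The Slc6 carriers of taurine, betaine, GABA and creatine take up osmolytes and energy metabolites with sodium and chloride. Slc6a6 (TauT), the taurine carrier (chromosome 6, 91684067 to 91759063), had 173.5, 129 and 182 CPM at baseline, 72.9, 88.3 and 58.4 CPM with vehicle and 64.2, 79.6 and 74.0 CPM with NSC. All 40 h libraries lay below all baseline libraries. Slc6a6 fell by 1.14 ± 0.19 with vehicle (adjusted p = 0.00148, edgeR) and by 1.15 ± 0.19 with NSC (adjusted p = 0.000925, edgeR), with calls in all 17 alternatives.

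Slc6a12 (BGT1), the betaine and GABA carrier, had 87.6, 97.9 and 84.4 CPM at baseline, 60.0, 73.6 and 55.4 CPM with vehicle and 43.5, 55.5 and 49.4 CPM with NSC. Both groups lay below baseline. Slc6a12 fell by 0.51 ± 0.15 with vehicle (adjusted p = 0.0282, edgeR) and by 0.86 ± 0.15 with NSC (adjusted p = 0.00142, edgeR). The vehicle call did not hold without baseline replicate 1, 2 or 3 or vehicle replicate 1 or 3 (adjusted p = 0.0676, 0.0899, 0.0598, 0.106 and 0.105, edgeR). The adjoining gene Slc6a13 (GAT2), 5343 bases away and the third most abundant carrier, had 313, 251.5 and 289 CPM at baseline, 358, 253 and 181 CPM with vehicle and 229, 187 and 204.5 CPM with NSC. It was not called with vehicle (-0.11 ± 0.22) or with NSC (-0.46 ± 0.22, adjusted p = 0.126, edgeR), although the NSC libraries lay below baseline. Slc6a8, the creatine carrier on chromosome X, had 7.14, 6.20 and 7.36 CPM at baseline, 10.9, 12.5 and 9.71 CPM with vehicle and 7.59, 11.9 and 8.18 CPM with NSC. It rose by 0.68 ± 0.20 with vehicle (adjusted p = 0.030, edgeR), and with NSC the difference was 0.42 ± 0.20 (adjusted p = 0.131, edgeR), which passed with library sizes alone (adjusted p = 0.0479, edgeR) and after GC correction (0.0157). The vehicle call of Slc6a8 did not hold without baseline replicate 1, 2 or 3 or vehicle replicate 1 or 2 (adjusted p = 0.0752, 0.0908, 0.0661, 0.0756 and 0.0996, edgeR).

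Slc6a9 (GlyT1), the glycine carrier (chromosome 4, 117834506 to 117875198), gave the largest fall. It had 31.8, 54.9 and 34.6 CPM at baseline, 20.6, 12.4 and 7.79 CPM with vehicle and 18.7, 10.2 and 9.20 CPM with NSC. The 6 libraries at 40 h lay below baseline, with replicate 1 the highest in both 40 h groups. Slc6a9 fell by 1.57 ± 0.40 with vehicle (adjusted p = 0.022, edgeR) and by 1.67 ± 0.40 with NSC (adjusted p = 0.0123, edgeR). The vehicle call did not hold without baseline replicate 2 (adjusted p = 0.0617) or vehicle replicate 2 (0.0719) or 3 (0.0515), by edgeR. With every gene of at least 1 count in the fit, neither call of Slc6a9 held (adjusted p = 0.0808 with vehicle and 0.0522 with NSC, edgeR). Erythroid cells also use Slc6a9, and the erythroid list (5 genes tested, 1 fell in each comparison) summed to 172 to 262 FPKM at baseline, 111 to 175 FPKM with vehicle and 140 to 236 FPKM with NSC. The part of erythroid RNA in this fall was not tested. Slc6a9 also overlaps the protein-coding genes Ccdc24 and B4galt2, which had at most 12 and 30 counts in a library.

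Of the lysosomal and less known Slc38 members, 4 were tested. Slc38a7, a glutamine and asparagine exporter of lysosomes, had 17.8, 23.8 and 23.2 CPM at baseline, 15.1, 15.7 and 13.95 CPM with vehicle and 12.8, 12.1 and 13.7 CPM with NSC. The 3 groups did not overlap, with NSC lowest. It fell by 0.53 ± 0.15 with vehicle (adjusted p = 0.0247, edgeR) and by 0.75 ± 0.15 with NSC (adjusted p = 0.00326, edgeR). The vehicle call of Slc38a7 did not hold without baseline replicate 2 or 3 or vehicle replicate 1 or 3 (adjusted p = 0.0873, 0.1, 0.0779 and 0.0802, edgeR). Slc38a10, a poorly known member (chromosome 11, 120103960 to 120151346), had 100.4, 110.1 and 118 CPM at baseline, 196, 165 and 128 CPM with vehicle and 103, 97.6 and 106 CPM with NSC. The vehicle libraries lay above baseline and the NSC libraries lay within or just below the baseline range. It rose by 0.58 ± 0.17 with vehicle (adjusted p = 0.0251, edgeR), and the NSC difference was -0.10 ± 0.17 (adjusted p = 0.681, edgeR). The vehicle call of Slc38a10 did not hold without baseline replicate 1, 2 or 3 or vehicle replicate 1 or 2 (adjusted p = 0.102, 0.059, 0.0555, 0.119 and 0.0605, edgeR).

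Slc36a4, a carrier of proline and tryptophan of the SLC36 family, had 7.71, 8.52 and 6.70 CPM at baseline, 14.2, 16.5 and 13.8 CPM with vehicle and 15.7, 17.7 and 11.5 CPM with NSC. Every 40 h library lay above baseline. It rose by 0.96 ± 0.18 with vehicle (adjusted p = 0.00353, edgeR) and by 0.97 ± 0.19 with NSC (adjusted p = 0.00221, edgeR), and the calls held in all 17 alternatives. Slc1a2 (GLT-1), the glutamate carrier of the hepatocytes around the central vein, had 157, 161 and 118 CPM at baseline, 102, 122 and 145.5 CPM with vehicle and 174, 99.8 and 121 CPM with NSC. Its groups overlapped and it was not called. The other acidic amino acid carriers, Slc1a1, Slc1a3, Slc1a6 and Slc1a7, had at most 10 counts in a library.

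**Figure D3:**
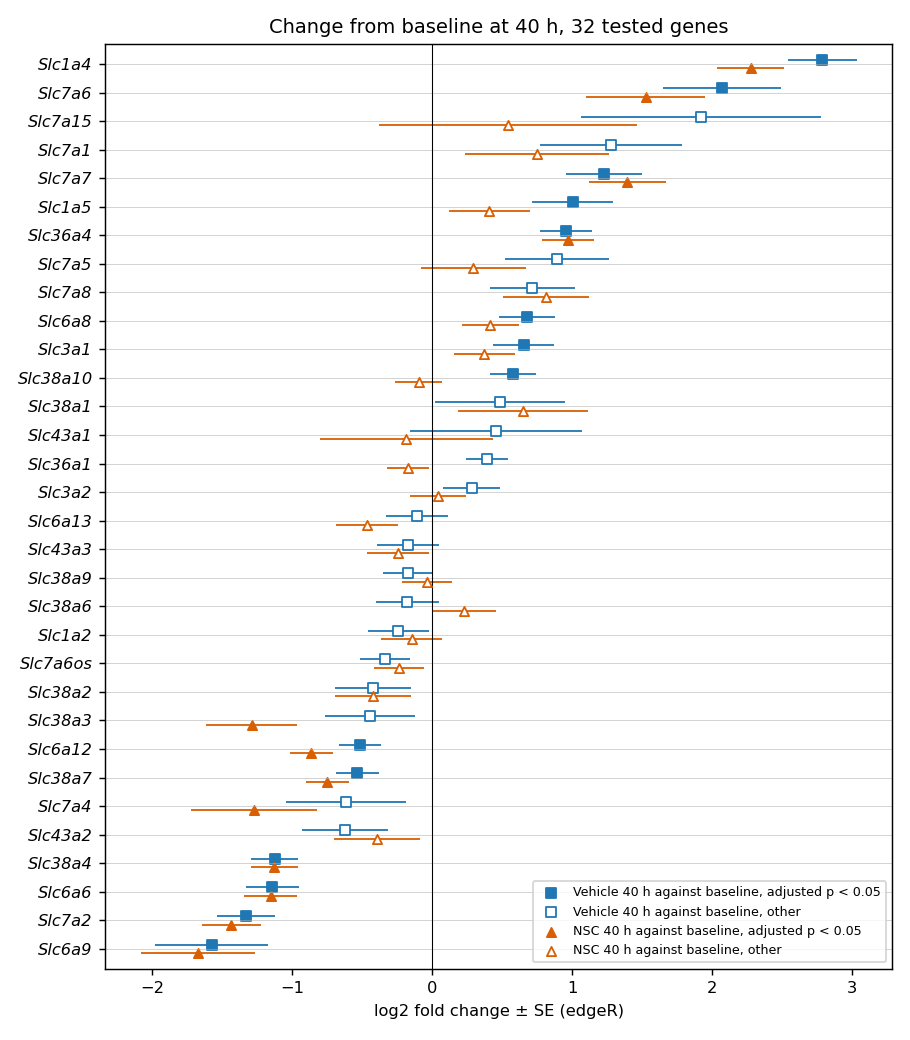
log2 fold change ± SE of the 32 tested genes at 40 h against baseline, with blue squares for vehicle and orange triangles for NSC, filled where the adjusted p was below 0.05. Both groups share the same baseline livers. Slc1a4 reached 2.79 and 2.28 at the upper end and Slc6a9 -1.57 and -1.67 at the lower end.

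Without NSC replicate 1, 13 of 32 carriers were called in the NSC comparison with baseline, beside 33.7% of all genes, and 17 with vehicle, beside 29.5%. Of the 12 first called Slc7a4 was the only one lost, and the 13 include carriers that were not called with all 9 libraries. The differences of the rising carriers then were 2.45 ± 0.21 for Slc1a4 (adjusted p = 2.52e-06, edgeR), 1.31 ± 0.46 for Slc7a6 (0.0427), 1.19 ± 0.27 for Slc7a7 (0.00469) and 0.94 ± 0.20 for Slc36a4 (0.0035). Those of the falling carriers were -2.06 ± 0.43 for Slc6a9 (adjusted p = 0.00816, edgeR), -1.28 ± 0.21 for Slc7a2 (0.000528), -1.24 ± 0.40 for Slc38a3 (0.0367), -1.07 ± 0.20 for Slc6a6 (0.00163), -1.06 ± 0.19 for Slc38a4 (0.00102), -0.78 ± 0.16 for Slc6a12 (0.00291) and -0.74 ± 0.17 for Slc38a7 (0.00549). All 11 kept their direction. Slc1a5, Slc3a1, Slc6a8, Slc6a13 and Slc38a2 were not called in this refit either (adjusted p from 0.057 for Slc6a8 to 0.411 for Slc1a5, edgeR).

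In the direct comparison of NSC with vehicle at 40 h, no carrier was called by edgeR, where 0.0399% of all genes (6 of 15024) were called. At an unadjusted p below 0.05, 5 of the 32 genes were found, beside 19.5% of all genes. The median log2 fold change was -0.228, beside 0.015 for all genes. Counted by sign whatever the SE, 22 of 32 values were negative, beside 7291 of 15024 for all genes. In 6 genes the NSC and vehicle libraries did not overlap (22.5% of all genes), and in 5 of these NSC was lower. DESeq2 called 2 genes, Slc38a10 (-0.66, adjusted p = 0.0125) and Slc36a1 (-0.55, adjusted p = 0.0316), or 6.25% of the 32, beside 5.03% of all genes (756 of 15024). Without NSC replicate 1, edgeR called 1 of 32 carriers (3.12%), beside 6.46% of all genes (994). A p that misses the threshold does not show that the groups act alike.

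Slc38a10 was the nearest to a call by edgeR, at -0.67 ± 0.17 (adjusted p = 0.0907), with 103, 97.6 and 106 CPM with NSC against 196, 165 and 128 CPM with vehicle. It was called without vehicle replicate 3 (-0.82, adjusted p = 0.0487, edgeR) and without NSC replicate 1 (-0.68, adjusted p = 0.0466, edgeR). Slc36a1 (PAT1), a lysosomal proton-coupled carrier named here after its values were seen, had 33.1, 35.9 and 31.7 CPM with NSC against 45.6, 55.0 and 48.2 CPM with vehicle, and 37.9, 31.5 and 43.9 CPM at baseline. Its difference was -0.56 ± 0.15 (adjusted p = 0.0998, edgeR). The NSC values of both genes lay near the baseline values.

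The difference of Slc38a3 between NSC and vehicle was -0.84 ± 0.32 (adjusted p = 0.193, edgeR), with no overlap, and -0.80 ± 0.39 without NSC replicate 1 (0.238). That of Slc1a4 was -0.51 ± 0.23 (adjusted p = 0.239, edgeR), also without overlap, and -0.34 ± 0.21 without NSC replicate 1 (0.341). Of the genes that were called with vehicle only, Slc38a10 is given above (-0.67 ± 0.17). The others gave -0.60 ± 0.29 for Slc1a5, -0.26 ± 0.20 for Slc6a8 and -0.28 ± 0.22 for Slc3a1, and none of these differences passed. Slc38a4, Slc6a6, Slc36a4 and Slc7a2 lay at 0.00 ± 0.17, -0.01 ± 0.19, 0.02 ± 0.18 and -0.10 ± 0.20, each smaller than its SE. The single gene in which all NSC libraries were higher than all vehicle libraries, Slc38a6, had a difference of 0.41 ± 0.23 (adjusted p = 0.33, edgeR).

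**Figure D4:**
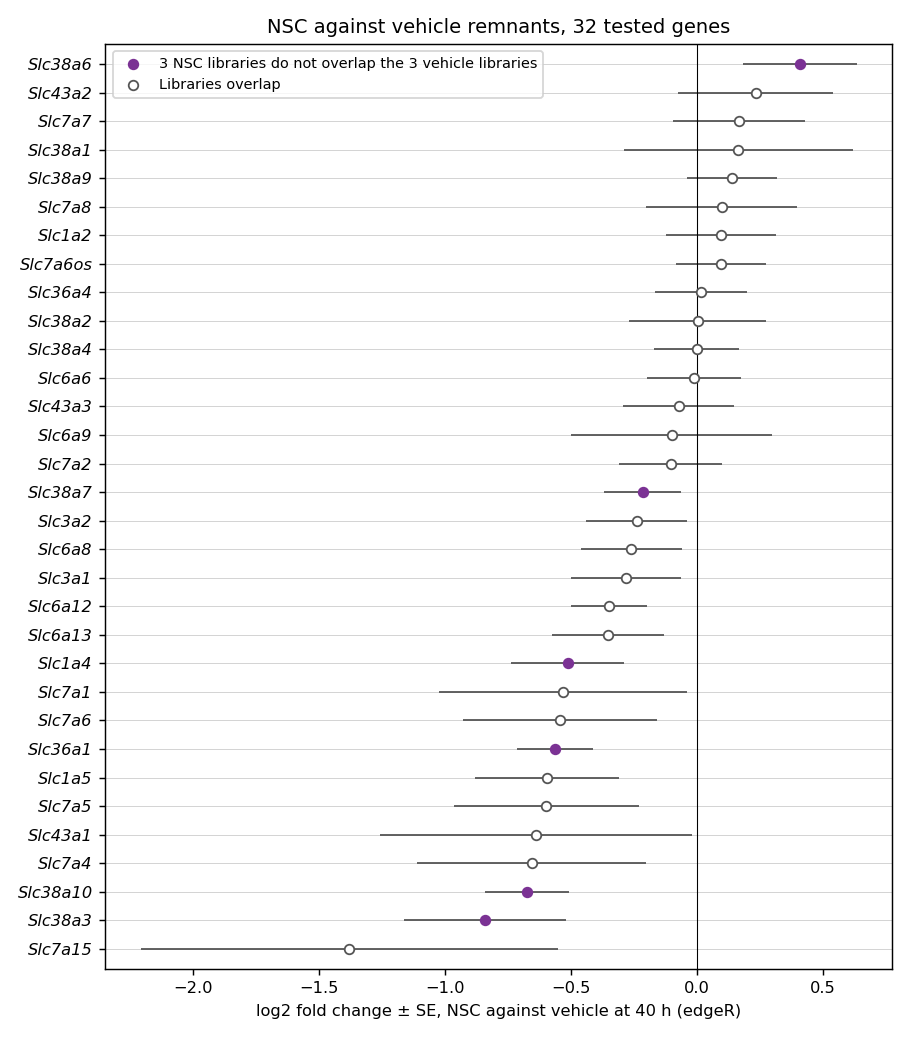
log2 fold change ± SE of NSC against vehicle at 40 h for the 32 tested genes. Filled points mark the 6 genes whose 3 NSC libraries do not overlap the 3 vehicle libraries, and none of the 32 passed an adjusted p of 0.05 by edgeR.

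The genes of the amino acid response were read beside the carriers. Of 24 ATF4-linked genes tested, 7 rose and 5 fell with vehicle, and 5 rose and 7 fell with NSC (background 23.7% and 34.7% called in either direction). The 5 genes that rose in both were Mthfd2 of mitochondrial folate metabolism (3.25 and 2.97, log2), Aldh18a1 of proline synthesis (2.81 and 2.17) and the enzymes of serine synthesis Phgdh (4.28 and 2.56), Psph (1.51 and 1.51) and Psat1 (5.05 and 4.53). Among those that fell in both was Ddit4, an inhibitor of mTORC1 (-2.59 and -1.82). With NSC the lowest value of the list was that of another gene, at -2.35. Asns, asparagine synthetase, was at 2.15 (adjusted p = 0.0531) and 1.83 (0.0664), and Trib3, a feedback inhibitor of ATF4, at -1.49 (0.149) and -1.90 (0.064), by edgeR. The list thus moved in both directions, with a median of 0.265 with vehicle and -0.127 with NSC.

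Of 33 tested genes that report amino acids to the growth kinase mTORC1, 1 rose and 6 fell with vehicle, and 3 rose and 13 fell with NSC (21.2% and 48.5% called, beside 23.7% and 34.7% of all genes). Among the cytosolic aminoacyl-tRNA synthetases, 2 of 20 rose with vehicle, and 2 rose and 1 fell with NSC (10% and 15% called), which is below both backgrounds. Of 7 tested genes of glutathione synthesis, 2 rose and 1 fell with vehicle and 3 rose and 1 fell with NSC (42.9% and 57.1% called). In a list of other carriers and partner proteins outside the 7 families, which also holds Slc47a1, Slc17a9 and Slc15a4 with other main substrates, 1 of 14 rose and 2 fell with vehicle and 6 fell with NSC (21.4% and 42.9% called). Slc15a4, a lysosomal histidine and peptide carrier, fell by 1.31 and by 1.82 (adjusted p = 0.000599 and 6.27e-05, edgeR).

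Carriers and enzymes of amino acid use are zoned along the liver lobule. Of 11 periportal genes, 6 fell with vehicle and 8 with NSC and none rose, with medians of -0.839 and -1.644, where 11% and 16.5% of all genes fell. Gls2, the liver glutaminase, was at -1.32 and -1.70, Ass1 of the urea cycle at -1.43 and -1.99, and Sds, serine dehydratase, at -1.67 and -2.54. Of 12 pericentral genes, 5 rose and 1 fell in each comparison, where 12.7% and 18.2% of all genes rose. Their summed level did not rise, with 3752 to 4701 FPKM at baseline, 2807 to 3471 FPKM with vehicle and 3322 to 3993 FPKM with NSC. Glul, glutamine synthetase, was at -0.06 and -0.04. No periportal or pericentral gene was called between NSC and vehicle by edgeR.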

How the data were processed

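Whole-liver RNA (stranded mRNA libraries) was sequenced by the authors, aligned with STAR 2.6.1 in MAP-RSeq 3.1.4 and assigned to genes with featureCounts of Subread 1.5.1. The authors deposited raw counts per gene and FPKM, one column per library without pooling. FPKM equalled the counts divided by length plus 1 base and library total. The sources name hg38, whereas the table holds mouse genes with GRCm38 coordinates. Strand use in counting is not given in the sources used here.

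Counts were fitted in R 4.3.3 with edgeR 4.0.16 (TMM, filterByExpr, robust quasi-likelihood, 9 libraries, group as the only term), and p-values were adjusted over 15024 genes. SE is the log2 fold change over the root of F. The procedure was tested on simulated data. CPM are TMM-scaled. With 3 libraries per group, an exact permutation test of a single value cannot go below p = 0.1, so none was used. Counting error alone sets the floor of 3 counts.

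Carriers and gene lists were chosen with earlier results of these data known, so no list was tested. Genes named were those called in at least 1 comparison, 12 carriers of general interest and the 5 of highest mean FPKM. From other lists they were the called genes past an absolute log2 fold change of 1.5, at most 4 per list and comparison. Glul, Asns and Trib3 were named whatever their values. Other genes named were chosen after their values were seen. Promoters came from RefSeq. Alternatives were RLE factors, library size only, DESeq2 1.42.0, looser and stricter count filters (1 count in any library, 10 in each), fits on just the pair of groups at issue, a replicate block and each library left out. GC correction (loess, span 0.5) was added after seeing the data.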

Additional observations from a re-analysis of the deposited data

How the results depend on the processing

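Of the 14 carriers called with vehicle, 7 were called under every alternative in which they were tested, and of the 12 called with NSC, 9 were. Leaving out 1 library gave 7 to 17 calls with vehicle (7 without baseline replicate 2, 8 without baseline replicate 3, 9 without baseline replicate 1 or vehicle replicate 2, 17 without NSC replicate 1, where 18.9%, 14.8%, 15.2% or 18.6%, and 29.5% of all genes were called), 11 to 13 with NSC (23.4% to 33.9% of all genes), and 0 to 1 in the direct comparison (1 without vehicle replicate 3 or NSC replicate 1). Fewer samples entered each of these refits. Adding the fold threshold left 3 calls with vehicle and 3 with NSC, beside 7.22% and 8.13% of all genes. DESeq2 gave 2 calls in the direct comparison, where it called 756 genes in all against 6 by edgeR. Without NSC replicate 1, edgeR called 994 genes there (6.46%), and without vehicle replicate 3 it called 111 (0.718%). The median log2 fold change of the carriers with vehicle was -0.053 with every gene of at least 1 count, -0.127 with at least 10 counts in every library, 0.028 after GC correction and 0.037 to 0.412 when 1 library was left out. The first 2 of these alternatives change which genes are tested. In the direct comparison the median was -0.108 with library size only, which itself moved the median of all genes to 0.142, and -0.313 to -0.075 when 1 library was left out. With library size only, the NSC median was 0.026, beside 0.154 for all genes.

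Among named carriers whose difference was at least its SE, 5 refits changed sign, none of them called. After GC correction the direct differences of Slc38a7 and Slc6a8 were 0.043 and 0.067. When 1 library was left out, Slc38a3 with vehicle ranged from -0.725 to 0.038, Slc7a1 with NSC from -0.071 to 1.123 and Slc3a2 in the direct comparison from -0.366 to 0.007. The cause of these shifts was not tested. A further 15 differences smaller than their SE were given no direction.

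Same-numbered libraries are not stated to come from 1 mouse. Their deviations from the group means correlated between -0.048 and 0.134, beside -0.115 to 0.066 for libraries of unlike number. Most same-numbered pairs lay above 0.066, the highest value for unlike numbers. The exceptions were baseline with vehicle replicate 3 (-0.048), baseline with NSC replicate 2 (0.016) and vehicle with NSC replicate 3 (0.019). The cause was not tested. The correlation was not above 0.1 in every same-numbered pair, and the numbers were not taken as pairs. These values do not settle whether any libraries share a mouse. With the replicate block, 14 carriers were called with vehicle, 13 with NSC and 0 in the direct comparison. The shares were 43.8%, 40.6% and 0% of carriers, beside 23.8%, 34.5% and 0.0732% of all genes. In that refit Slc3a1 missed the threshold with vehicle (adjusted p = 0.0581, edgeR) and Slc7a1 passed it (0.044). Depth limits the 30 untested carriers and those near the floor, such as Slc7a6 and Slc7a4.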
